A study of Mus musculus with 6 samples.

Results

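The genes that make, break down and read out cyclic AMP (cAMP) were examined in islets of Langerhans. They comprised every gene whose platform symbol is Adcy or Pde followed by a digit, together with the protein kinase A subunit genes Prkaca, Prkacb, Prkar1a, Prkar1b, Prkar2a and Prkar2b, and the Epac genes Rapgef3 and Rapgef4. On these arrays 42 such genes were measured, of 18193 genes in all, and 112 probe sets carried their symbols, with 29 genes having more than 1. Each gene was represented by the probe set with the highest mean over the 6 arrays. No probe set with Rapgef4 or Pde4c as its only symbol was used here. The islets came from 3 mice labelled as carrying a deletion of PPAR-beta (genotype Pdx1Cre;PPARbetafl/fl, called knockout below) and from 3 control littermates (PPARbetafl/fl without Cre), all aged 8 weeks and of mixed SV 129/C57BL/6 background. All 6 mice carried the floxed alleles, and the knockout mice alone carried the Cre transgene, so the deletion and the transgene cannot be told apart as the source of a difference. The Pdx1 promoter that drives Cre is active in the whole developing pancreas, which includes acinar, duct and all endocrine cells. By label the samples are beta-cells, but per the protocol whole islets were isolated, which hold the other endocrine cells, vessels and immune cells as well. The question here was whether cAMP genes are expressed at other levels in knockout than in control islets.

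Cyclic AMP is made from ATP by adenylyl cyclases, which the stimulatory G protein activates and the inhibitory G protein restrains. In beta cells the gut hormones GLP-1 and GIP act through this route, and the resulting cAMP amplifies glucose-driven insulin release through protein kinase A and the Epac exchange factors. Phosphodiesterases hydrolyse cyclic nucleotides and so limit the size and the spread of the signal, and families differ in whether they accept cAMP, cGMP or both.

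The arrays shared a common scale, with medians of 5.39 to 5.41 on the log2 scale in knockout arrays and 5.41 to 5.49 in control arrays. Arrays correlated over probe sets at r of 0.991 to 0.993 among knockouts, at 0.981 to 0.991 among controls, and at 0.978 to 0.987 across groups. The beta cell genes Ins2 and Iapp stood among the brightest probe sets in both groups (Ins2 at 13.80 in knockout and 13.85 in control islets, Iapp at 14.10 and 14.09). The mean of 8 beta cell markers was 11.37 to 11.72 in knockouts and 11.72 to 12.04 in controls, with 1 called, the zinc transporter gene Slc30a8, which fell. The targeted gene was not lower in knockout arrays: Ppard had values of 8.01, 8.20 and 7.70 in knockouts and 7.75, 7.56 and 7.12 in controls (difference 0.49 ± 0.20, SE, adjusted p = 0.377). The second Ppard probe set was not lower either, at 5.97, 5.84 and 5.73 in knockouts and 5.57, 5.47 and 5.47 in controls. Its groups did not overlap (difference 0.35 ± 0.11, limma adjusted p = 0.255). The labels name no deleted exon, so a probe set outside it checks nothing, and the genotype rests on the labels. Islet preparations also differed in exocrine RNA. The mean of 20 acinar markers, digestive enzyme genes for the most part, was 8.92, 5.64 and 5.76 in knockouts 1 to 3 and 6.93, 11.48 and 11.71 in controls 1 to 3. Controls 2 and 3 were thus the arrays with the most acinar RNA, and the groups overlapped (two-sided exact permutation test, p = 0.2, with 0.1 the smallest p that 3 arrays a group allow).

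Of the 42 genes, 2 rose in knockout islets, 0 fell and 40 did not pass the test (limma, adjusted p under 0.05 over all 45037 probe sets). Both that rose, Pde7b and Pde8b, encode cAMP-specific phosphodiesterases. Over all 18193 genes, 0.852% rose and 0.247% fell. Counted by probe set, 4 of the 112 rose, against 0.897% of all probe sets called in either direction. The median difference of the 42 genes was 0.026 on the log2 scale, against 0.0020 over all genes. The groups did not overlap for 5 of the 42 genes, or 11.9%, against 21.2% of all genes, and 6 of 42 had an unadjusted p under 0.05, against 14.0% of all genes. These shares over all genes also stand beside the counts of smaller groups given below. With so few genes called, a count of 0 in a small group is no result about that group.

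Promoter sequence is shown for the 2 genes that rose and for Pde8a, the close relative of Pde8b that did not pass. The windows hold the 250 bases before a RefSeq transcription start in build GRCm38.p6, read on the strand of the gene. Pde8b has 5 listed starts in 2 clusters, and the most upstream start of each is given. Pde7a has no entry in the table used. Capitals mark matches to the motifs searched: the cAMP response element TGACGTCA and its short form TGACG, the STAT motif TTCNNNGAA, the nuclear receptor motif AGGTCA, and the PPAR motif, a direct repeat of AGGTCA with 1 base between the copies, each on both strands.
Pde7b, chr10:20548329-20548578, minus strand: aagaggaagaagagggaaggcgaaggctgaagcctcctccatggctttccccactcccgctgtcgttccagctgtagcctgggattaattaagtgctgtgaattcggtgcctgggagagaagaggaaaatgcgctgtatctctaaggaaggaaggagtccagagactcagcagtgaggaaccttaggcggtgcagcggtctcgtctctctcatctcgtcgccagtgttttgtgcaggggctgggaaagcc
Pde8b, upstream start, chr13:95250337-95250586, minus strand: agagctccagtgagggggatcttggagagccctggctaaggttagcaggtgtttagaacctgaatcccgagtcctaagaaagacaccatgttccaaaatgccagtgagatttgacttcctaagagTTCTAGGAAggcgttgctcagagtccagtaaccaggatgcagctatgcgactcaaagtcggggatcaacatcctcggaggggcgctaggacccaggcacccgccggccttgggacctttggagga
Pde8b, downstream start, chr13:95223093-95223342, minus strand: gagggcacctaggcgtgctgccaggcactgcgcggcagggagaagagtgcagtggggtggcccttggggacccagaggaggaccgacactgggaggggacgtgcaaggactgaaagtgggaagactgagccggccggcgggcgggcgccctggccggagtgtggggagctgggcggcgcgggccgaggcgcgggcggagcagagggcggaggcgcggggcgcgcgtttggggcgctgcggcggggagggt
Pde8a, chr7:81213015-81213264, plus strand: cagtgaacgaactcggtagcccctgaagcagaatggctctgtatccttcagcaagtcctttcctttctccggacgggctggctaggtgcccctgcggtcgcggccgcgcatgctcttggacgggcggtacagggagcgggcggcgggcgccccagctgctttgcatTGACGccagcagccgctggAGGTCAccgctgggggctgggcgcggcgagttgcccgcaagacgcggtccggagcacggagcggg
The Pde7b window held none of these motifs. The upstream Pde8b window held 1 STAT motif, TTCTAGGAA, which begins at position -125 counted from the start, and a match to that motif occurs in 7.02% of all 32851 windows. The Pde8a window held a short cAMP response element at position -84, a motif of 17.8% of all windows, and a nuclear receptor motif at position -65, found in 14% of windows. Promoters were listed for 33 of the 42 genes, in 71 windows. A short cAMP response element lay in 14 of these windows, those of 12 genes, and the full element in 1 of them, at Prkar1a, against 1.55% of all windows. The PPAR motif lay in 0 of the 71 windows and in 0.0335% of all windows. The full element contains the short one and the PPAR motif contains the nuclear receptor motif, so these counts overlap, and a match describes letters in a window and nothing about binding.

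Pde7b, which encodes a cAMP-specific phosphodiesterase, had the largest difference of the 42 genes. Its values were 8.10, 8.03 and 8.04 in knockouts 1 to 3 and 6.12, 5.65 and 5.14 in controls 1 to 3. The 3 knockout arrays lay within 0.1 of each other and all above the highest control. The difference was 2.42 ± 0.23 (SE), which is 5.35-fold (adjusted p = 0.00733, means 8.06 ± 0.04 and 5.64 ± 0.49, SD, n = 3 each). Both other Pde7b probe sets also passed, at 2.31 ± 0.24 (adjusted p = 0.00950) and 2.04 ± 0.17 (adjusted p = 0.00415). In whole-islet RNA, more cells that carry a transcript and more transcript per cell cannot be told apart. Control 1, the control with the least acinar RNA, had the highest Pde7b value among controls. Knockout 1, the knockout with the most acinar RNA, had the highest Pde7b value among knockouts on the brightest probe set only. On both other probe sets knockout 3 was the highest knockout, at 7.50 and 5.97 against 7.07 and 5.71 in knockout 1. Against control 1 alone, which is then assumed to vary as the knockouts do, the difference was 1.94 ± 0.14 (adjusted p = 0.0344). When the acinar level entered the fit as a covariate, the difference was 2.09 ± 0.26 and no longer passed (adjusted p = 0.0560).

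Pde8b encodes a high-affinity cAMP phosphodiesterase that is insensitive to the general inhibitor IBMX. Its values were 7.37, 7.98 and 7.57 in knockouts 1 to 3 and 6.11, 5.72 and 5.82 in controls 1 to 3, with no overlap. The difference was 1.76 ± 0.19 (SE), or 3.38-fold (adjusted p = 0.0102, means 7.64 ± 0.31 and 5.88 ± 0.21, SD, n = 3 each). A dimmer probe set, with a difference of 0.79 ± 0.21, missed the threshold (adjusted p = 0.185), with values of 6.21, 6.16 and 5.97 in knockouts and 5.80, 5.13 and 5.05 in controls. The size of the rise therefore depends on the probe set, while both gave the same direction and no overlap. The brighter one no longer passed when control 3 was left out (a difference of 1.72 and an adjusted p of 0.0679) or knockout 3 was (1.79 and 0.0515). It also missed the threshold in the fit with the acinar level (1.46 and 0.0629) and in that against control 1 alone (1.53 and 0.152).

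**Figure D1:**
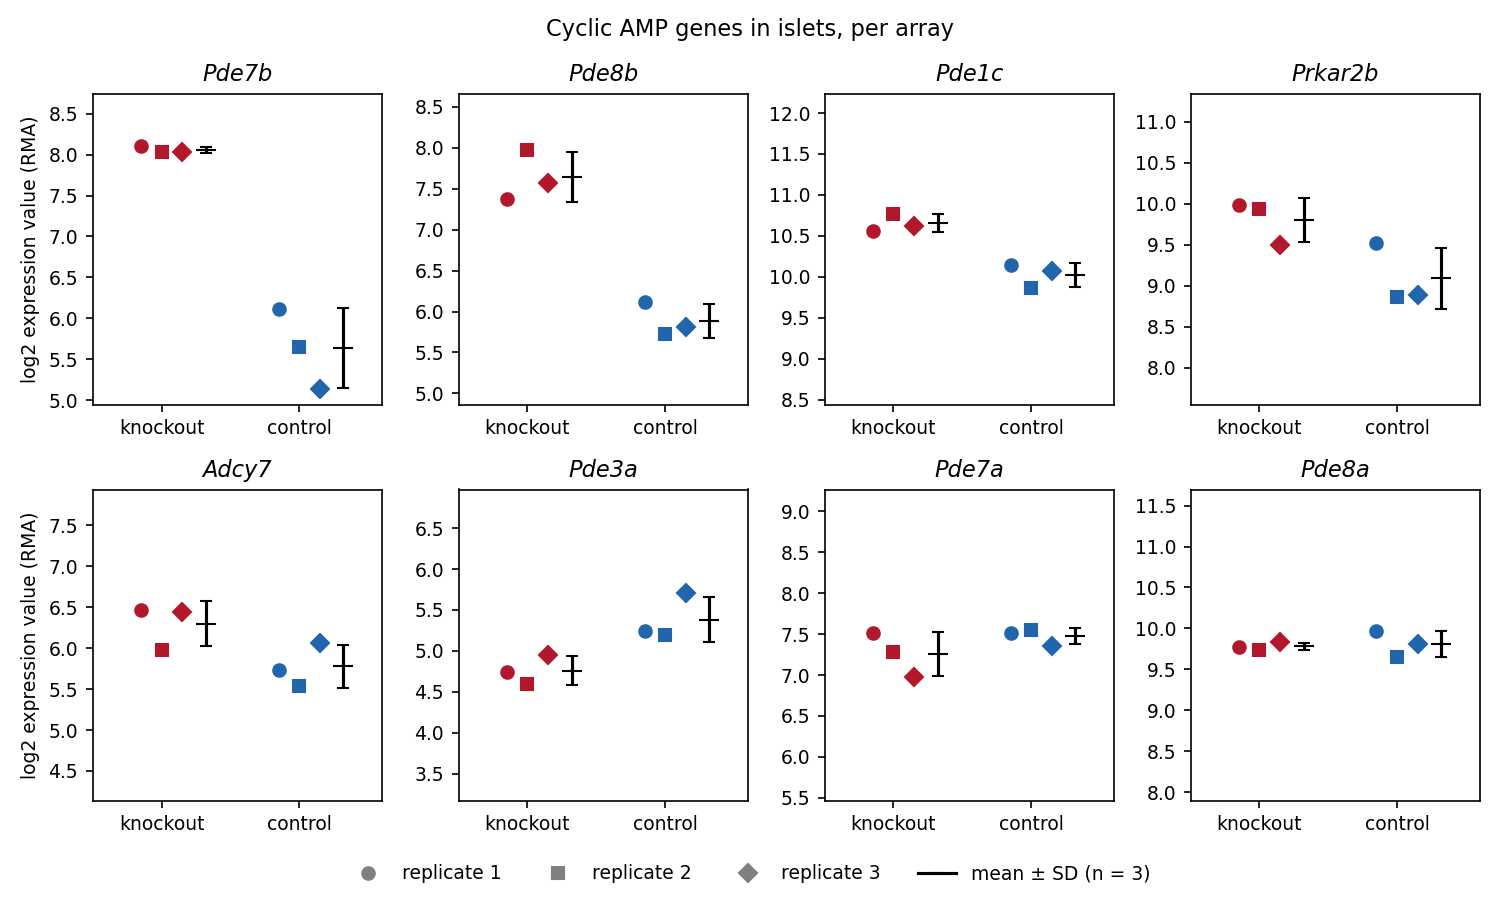
Log2 expression values of 8 genes on each array, with knockout arrays at the left of each panel and control arrays at the right. Marker shapes give the replicate number, black bars show the mean ± SD of 3 arrays, and every panel spans the same number of log2 units. Pde7b and Pde8b separate the groups most widely, Pde1c and Pde3a separate them narrowly, and Prkar2b, Adcy7, Pde7a and Pde8a overlap.

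The closest relatives of these genes did not pass. Pde7a, the paralogue of Pde7b, had values of 7.51, 7.28 and 6.97 in knockouts and 7.52, 7.55 and 7.36 in controls (difference -0.22 ± 0.16, 95% interval -0.59 to 0.16, adjusted p = 0.621). Of its 7 probe sets, 6 had lower means in knockouts, with differences of -0.65 to -0.22, and 1 had a higher mean, at 0.12. The groups did not overlap on 3 of the 7, all lower in knockouts, against 19.0% of all probe sets. None of the 7 passed, the smallest adjusted p being 0.193. Pde8a stood at 9.77, 9.74 and 9.83 in knockouts and at 9.97, 9.65 and 9.81 in controls. Its difference of -0.030 ± 0.12 (adjusted p = 0.948) had an interval of -0.31 to 0.25, and its second probe set differed by 0.0072.

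The remaining cAMP-specific phosphodiesterases belong to the PDE4 family, the targets of rolipram. Pde4b differed by 0.18 ± 0.16, Pde4d by -0.12 ± 0.11 and Pde4a by -0.15 ± 0.12, with adjusted p between 0.649 and 0.715. None of the intervals on their brightest probe sets reached a difference as large as that of Pde8b. The widest of these ran from -0.20 to 0.56, for Pde4b. Other Pde4b probe sets had either sign, the second brightest at -0.17 ± 0.21 and the next at 0.058, with an interval of -0.70 to 0.82. A dim Pde4b probe set differed by -0.33 ± 0.13 without overlap (limma adjusted p = 0.373).

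Phosphodiesterases that hydrolyse both cAMP and cGMP counted 8 genes, of which 0 passed (limma, with 2 at an unadjusted p under 0.05). Pde1c, a calcium- and calmodulin-stimulated enzyme, had values of 10.56, 10.77 and 10.63 in knockouts and 10.15, 9.86 and 10.07 in controls. All knockout values lay above all control values, and the difference was 0.63 ± 0.12 (1.54-fold, adjusted p = 0.0887). It passed with an intensity trend in the prior variance (adjusted p = 0.0198) and missed the threshold in the other 13 of 14 alternative fits. Its 6 probe sets differed by 0.23 to 1.13, and in 5 of them the groups did not overlap, as in 19.0% of all probe sets. The relatives Pde1a and Pde1b differed by 0.20 ± 0.14 and -0.014 ± 0.11.

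Pde3a, a cGMP-inhibited phosphodiesterase, pointed the other way. Its values were 4.74, 4.60 and 4.95 in knockouts and 5.25, 5.20 and 5.70 in controls, a difference of -0.62 ± 0.17 (adjusted p = 0.200) with no overlap. Its second probe set differed by 0.13 ± 0.30 with overlap, and the dimmest by -0.29 ± 0.13 without overlap (adjusted p = 0.400), so 2 of 3 had lower means in knockouts. Pde3b, the insulin-activated relative that is known as a main cAMP-degrading enzyme of beta cells, had 10.27, 10.33 and 10.40 in knockouts and 10.58, 10.34 and 10.56 in controls (difference -0.16 ± 0.11, 95% interval -0.43 to 0.11, adjusted p = 0.619). Among the others, Pde2a, which cGMP stimulates, differed by 0.27 ± 0.14, Pde11a by 0.11 ± 0.15 and Pde10a by 0.087 ± 0.24. A dimmer Pde2a probe set differed by 0.49 ± 0.19 without overlap (limma adjusted p = 0.342), and the dimmest by 0.14 ± 0.16.

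The 7 cGMP phosphodiesterase genes, which act on the sister nucleotide, gave 0 calls (limma, 0 at an unadjusted p under 0.05). Pde5a, the target of sildenafil, had values of 8.93, 9.64 and 9.32 in knockouts and 8.94, 8.90 and 8.95 in controls (difference 0.37 ± 0.18, adjusted p = 0.463). Knockout 1 lay among the controls on this probe set. The dimmer Pde5a probe sets differed by 0.38 ± 0.16 with overlap and by 0.23 ± 0.10 without overlap (limma adjusted p = 0.379 and 0.394). The PDE6 genes encode the photoreceptor enzyme, and 3 measured photoreceptor markers averaged 3.11 to 3.27 in knockouts and 3.16 to 3.42 in controls, at the dim end of the arrays. Pde6b differed by 0.23 ± 0.15 (adjusted p = 0.561) and Pde6a, Pde6c, Pde6g and Pde6h by -0.15 to -0.032. Pde9a, a high-affinity cGMP enzyme, differed by 0.037 ± 0.19.

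The symbol rule also took in 3 genes that share the name but encode no cyclic nucleotide phosphodiesterase subunit of this kind, and 0 of them passed (limma, 0 at an unadjusted p under 0.05). Pde4dip encodes myomegalin, a centrosome and Golgi scaffold that binds a PDE4 enzyme. It had 9.19, 9.22 and 9.08 in knockouts and 9.03, 8.69 and 9.01 in controls, without overlap (difference 0.25 ± 0.13, adjusted p = 0.478). Its second brightest probe set differed by 0.51 ± 0.16, also without overlap (limma adjusted p = 0.261). The next of its 4 probe sets differed by 0.45 ± 0.28, with overlap, and the dimmest by -0.018. Pde6d, a carrier of prenylated proteins, differed by 0.048 ± 0.12, and Pde12, which acts on oligoadenylates and mitochondrial RNA, by -0.0023 ± 0.10.

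**Figure D2:**
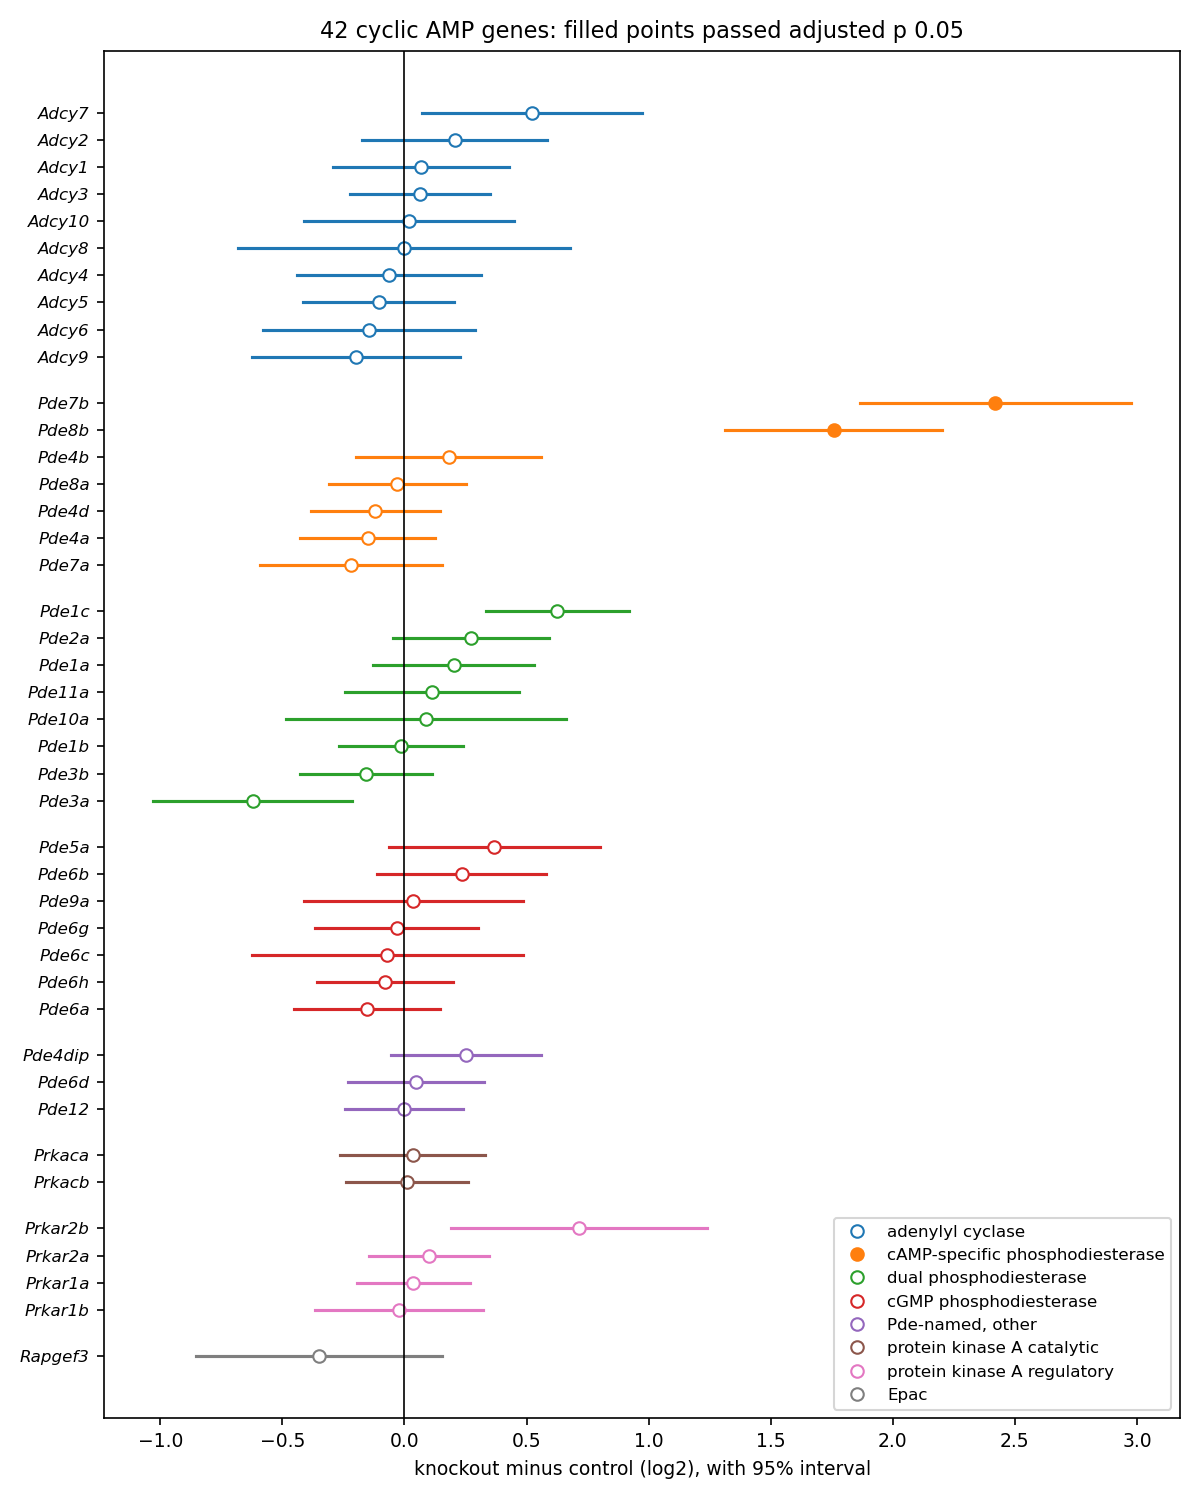
Log2 differences of the 42 genes (knockout minus control) with the 95% interval of the limma fit, grouped and coloured by role and sorted within a role. Filled points passed adjusted p 0.05. Pde7b at 2.42 and Pde8b at 1.76 stand to the right of all others, whose differences lie between -0.62 for Pde3a and 0.72 for Prkar2b.

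On the synthesis side, 10 adenylyl cyclase genes were measured and 0 passed (limma, 1 at an unadjusted p under 0.05). Their differences ran from -0.20 to 0.52, with a median of 0.0085 on the log2 scale. Adcy9, the brightest of them, had 8.32, 8.83 and 8.49 in knockouts and 8.97, 8.50 and 8.76 in controls (difference -0.20 ± 0.18, 95% interval -0.62 to 0.23, adjusted p = 0.705). All 4 Adcy9 probe sets had lower means in knockouts, by 0.15 to 0.34 on the log2 scale, and none passed.

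Adcy7, the cyclase known from blood and immune cells, had the smallest p among the cyclases. Its values were 6.47, 5.98 and 6.45 in knockouts and 5.73, 5.54 and 6.06 in controls (difference 0.52 ± 0.19, adjusted p = 0.324), and knockout 2 lay below control 3. A dimmer probe set read the opposite, at 4.75, 5.17 and 4.53 in knockouts and 5.59, 5.80 and 6.06 in controls (95% interval of the difference -1.47 to -0.53, adjusted p = 0.0904), and the third, at the bottom of the range, differed by 0.027. Averaged over its probe sets Adcy7 differed by -0.15, so no direction can be given for the gene. The mean of 11 immune markers was 6.63 to 6.93 in knockouts and 6.16 to 6.36 in controls, with 1 marker called, Laptm5, and its part in the Adcy7 values was not tested. Adcy2 differed by 0.21 ± 0.16 (adjusted p = 0.649).

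The calcium-inhibited cyclases Adcy5 and Adcy6 differed by -0.11 ± 0.13 and -0.15 ± 0.18, and Adcy3 by 0.064 ± 0.12. The dimmest Adcy3 probe set differed by -0.48 ± 0.13 without overlap (adjusted p = 0.205), and its remaining ones by -0.021 and 0.13. A dim Adcy5 probe set differed by -0.46 ± 0.16 without overlap (adjusted p = 0.288), and its remaining ones by 0.036 and -0.15. Adcy4 differed by -0.064 ± 0.16. The calcium- and calmodulin-stimulated cyclases Adcy1 and Adcy8 were dim, at percentiles 14.1 and 15.2 of all probe sets by mean value, as was the bicarbonate-activated soluble cyclase Adcy10 at 9.99. Adcy1 differed by 0.069 ± 0.15 and Adcy10 by 0.018 ± 0.18. Adcy8 differed by -0.00078 with a 95% interval of -0.68 to 0.68, so a change of up to 0.68 either way would not have been resolved for it. Its highest value was that of control 1, at 3.59, against 2.48 and 2.59 in the other controls and 2.81 to 2.98 in knockouts.

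The effector genes did not pass either: 0 of 7 were called (limma), and 1, Prkar2b, had an unadjusted p under 0.05. Over all genes, 0.852% rose, 0.247% fell and 14.0% had an unadjusted p under 0.05. The catalytic subunit genes of protein kinase A were close between genotypes. Prkaca had 8.61, 8.94 and 8.71 in knockouts and 8.83, 8.65 and 8.68 in controls (difference 0.034 ± 0.13, 95% interval -0.26 to 0.33, adjusted p = 0.944). Prkacb had 10.67, 10.64 and 10.62 in knockouts and 10.75, 10.55 and 10.59 in controls (difference 0.011 ± 0.11, interval -0.24 to 0.26, adjusted p = 0.979). Its other probe sets differed by -0.14 and 0.065.

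Among the regulatory subunits, which hold the kinase inactive until cAMP binds, Prkar2b (RII-beta) differed most. It had 9.99, 9.93 and 9.49 in knockouts and 9.52, 8.87 and 8.89 in controls, a difference of 0.72 ± 0.22 (1.64-fold, adjusted p = 0.248). Knockout 3 lay just under control 1. Its dimmer probe sets differed by 0.97 ± 0.25 and 1.16 ± 0.34 with no overlap, and neither passed. Control 1, the control with little acinar RNA, was the highest control on all 3 probe sets. Knockout 1, the knockout with the most acinar RNA, was the highest knockout on all 3. Against control 1 alone the Prkar2b difference on the brightest was 0.29 ± 0.24. Prkar2a differed by 0.10 ± 0.10 (adjusted p = 0.741), with its dimmest probe set at -0.32. Prkar1a, at percentile 98.9 of all probe sets, had 12.03, 12.01 and 12.03 in knockouts and 11.92, 12.04 and 12.01 in controls (difference 0.036 ± 0.097, adjusted p = 0.918). Its second probe set differed by 0.34 ± 0.13 without overlap (adjusted p = 0.341), and its dimmest by 0.13. Prkar1b differed by -0.021 ± 0.14.

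Rapgef3 encodes Epac1, an exchange factor for the small GTPase Rap that cAMP activates without the kinase. Its values were 8.64, 8.21 and 8.76 in knockouts and 9.11, 8.52 and 9.03 in controls, which overlapped (difference -0.35 ± 0.21, 95% interval -0.85 to 0.15, adjusted p = 0.547). Of its 5 probe sets, the 3 brightest differed by -0.41 to -0.35 and the 2 dimmest by 0.052 and 0.14.

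**Figure D3:**
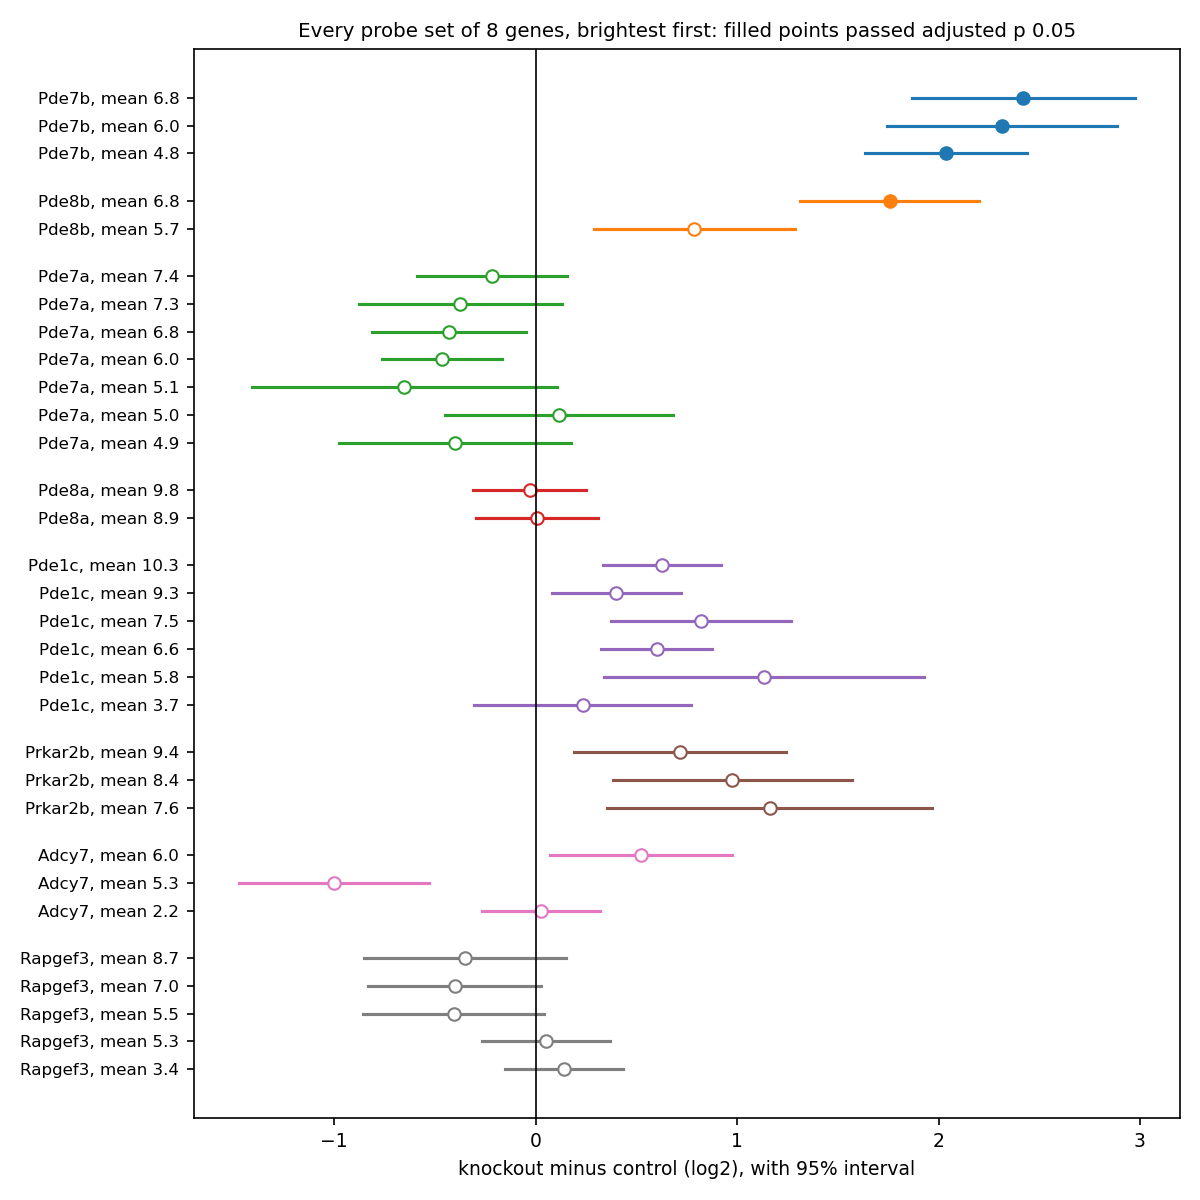
Log2 differences (knockout minus control) with 95% intervals for every probe set of 8 genes, ordered within a gene from the brightest to the dimmest mean of 6 arrays. Filled points passed adjusted p 0.05. All 3 Pde7b probe sets and 1 of 2 Pde8b probe sets are filled, those of Pde1c and Prkar2b all lie above 0, and those of Adcy7 lie on both sides of 0.

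The rest of the pathway was read from a list of receptors, G proteins, anchors, other effectors and CREB-branch genes, of which 66 were measured. Of these, 0 rose, 1 fell and 65 did not pass, against 0.852% of all genes that rose and 0.247% that fell. An unadjusted p under 0.05 was reached by 13 of the 66, or 19.7%, against 14.0% of all genes, and the groups did not overlap for 15, or 22.7%, against 21.2%. The median difference was 0.037 on the log2 scale. The gene that fell was Ghsr, the ghrelin receptor, which delta cells carry: it had 5.45, 5.31 and 5.59 in knockouts and 6.62, 6.74 and 6.51 in controls, a difference of -1.17 ± 0.12 (adjusted p = 0.00970). Without knockout 1 the difference was -1.17 (adjusted p = 0.0604), and without knockout 2 it was -1.10 (adjusted p = 0.0544). The fit with the acinar level gave -1.17 (adjusted p = 0.0968), and that against control 1 alone -1.17 (adjusted p = 0.119). Ghsr is also 1 of the 7 delta, PP and epsilon cell markers, whose mean was 9.87 to 9.93 in knockouts and 10.42 to 10.63 in controls, with 2 called, Ghsr and Rbp4.

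Receptors that raise cAMP included the VIP receptor gene Vipr1, with 6.89, 6.79 and 6.82 in knockouts and 7.87, 7.72 and 7.42 in controls (difference -0.84 ± 0.14, adjusted p = 0.0545). It lay just outside the threshold and passed in 3 alternative fits: with the intensity trend (adjusted p = 0.0340), when probe sets under a mean of 5 were left out (0.0359) and when arrays were quantile-normalized once more (0.0390). In the other 11 of 14 alternative fits Vipr1 missed the threshold, including every fit with 1 array left out (limma adjusted p 0.0617 to 0.205). Its second probe set differed by -0.99 ± 0.26. The glucagon receptor gene Gcgr had 7.47, 6.63 and 7.55 in knockouts and 8.33, 7.93 and 8.17 in controls (difference -0.93 ± 0.26, adjusted p = 0.201). Both separated the groups without passing. The 4 measured alpha cell markers averaged 9.12 to 9.22 in knockouts and 9.64 to 9.86 in controls with 0 called, and the part of other endocrine cells in these receptor values was not tested. The GLP-1 receptor gene Glp1r differed by -0.023 ± 0.20 (adjusted p = 0.978) and the GIP receptor gene Gipr by 0.099 ± 0.26 (adjusted p = 0.916). Of the 10 measured receptors that raise cAMP, 5 had higher and 5 lower means in knockouts.

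Downstream of the receptors, Gnal, a stimulatory G protein alpha subunit, had 5.22, 5.58 and 5.15 in knockouts and 4.75, 4.60 and 4.74 in controls (difference 0.62 ± 0.14, adjusted p = 0.135). Pkib, an inhibitor peptide of the protein kinase A catalytic subunit, had 9.65, 9.34 and 9.56 in knockouts and 9.003, 8.63 and 8.70 in controls (difference 0.74 ± 0.15, adjusted p = 0.0876). Neither overlapped between groups, and neither passed. Pkib passed without control 1 (adjusted p = 0.0450) and with the intensity trend (0.0324), and Gnal passed on the mean of its probe sets (0.0373). Both missed the threshold in the rest of the 14 alternative fits, which were 12 for Pkib and 13 for Gnal. The mitochondrial kinase anchor gene Akap1 differed by 0.40 ± 0.11 (adjusted p = 0.198). Among 16 genes of the CREB branch, the transcriptional arm of the kinase, 0 passed (limma, 1 at an unadjusted p under 0.05), and their differences ran from -1.15 to 1.03.

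**Figure D4:**
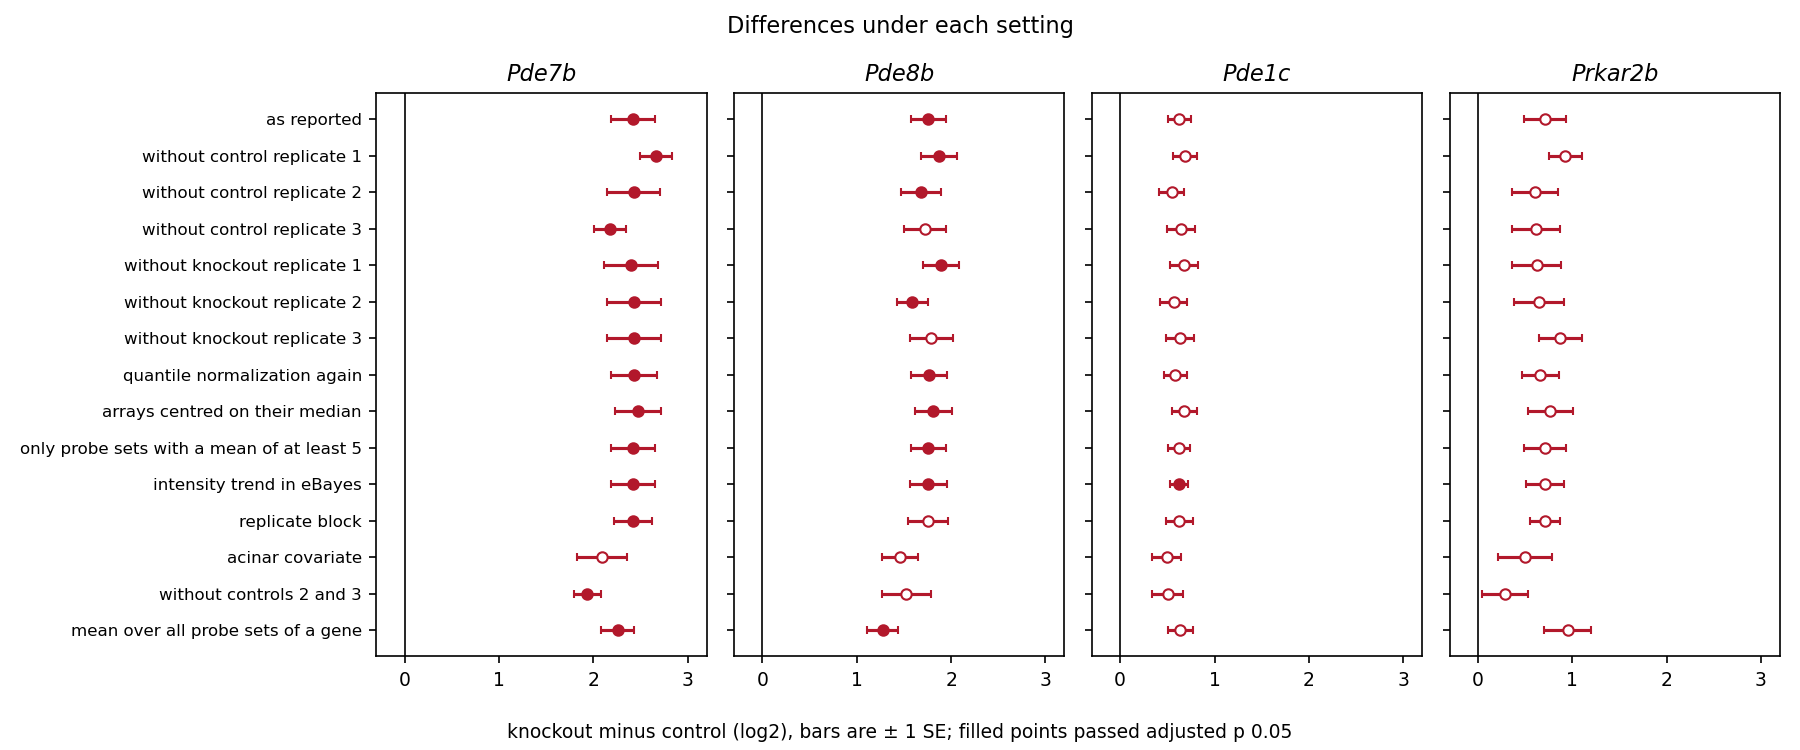
Log2 differences of 4 genes (knockout minus control) with bars of ± 1 SE, as reported and under 14 other settings. Filled points passed adjusted p 0.05. Pde7b lies between 1.94 and 2.66 and Pde8b between 1.27 and 1.89, Pde1c lies between 0.49 and 0.69 and is filled once, and Prkar2b lies between 0.29 and 0.95 and is never filled.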

How the data were processed

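RNA of islets from 6 mice was measured on 1-colour Affymetrix arrays. The authors deposited log2 values for each probe set, made with RMA (background correction, normalization between arrays, summary of probes), per the submitters' processing notes, which give no version. The genome build is not given in the sources used here. Of 45101 probe sets, 64 manufacturer's controls were left out. Names came from the platform annotation (34945 single-symbol probe sets). The comparison used limma 3.58.1 under R 4.3.3 (two-sided moderated test from lmFit and eBayes with genotype alone in the model), with Benjamini-Hochberg adjustment over 45037 probe sets. Differences are knockout minus control with the moderated SE. The fit was tested on simulated data with independent noise for each probe set. Such data lack differences shared across probe sets, as in acinar RNA, so that test says nothing about them. RMA values carry no detection call, the array number limits precision, and brightness is no transcript amount. Members, lists and alternatives were chosen with earlier results of these data known. The genes described were those past the threshold and, per role, the 2 with the smallest p and the brightest, and, for the wider pathway list, the 6 with the smallest p. Other members are given by values or ranges. Promoter sequences are RefSeq's (GRCm38.p6). Alternatives were single arrays left out, renormalization, centring, a floor of 5, an intensity trend, a replicate block, an acinar covariate, controls 2 and 3 left out, and probe set means.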

Additional observations from a re-analysis of the deposited data

How the results depend on the processing

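The count of the 42 genes called was 3 with an intensity trend (Pde1c in addition), 1 to 2 with 1 array left out, 1 without controls 2 and 3, and 0 with the acinar covariate (limma, 5 at an unadjusted p under 0.05). Their median difference was -0.048 with that covariate and -0.051 without controls 2 and 3. Over all probe sets there were 404 calls, 152 to 783 with 1 array left out, 887 with an intensity trend, 124 with the acinar covariate and 54 without controls 2 and 3. The pathway list gave 0 to 2 calls with 1 array left out, 2 after quantile normalization again, 2 above the floor of 5, 3 with the trend, 3 on probe set means (Ghsr, Gnal and Ptger4), and 0 with the acinar covariate or without controls 2 and 3 (limma, 8 at an unadjusted p under 0.05 with the covariate and 6 without these controls). The replicate numbers of the labels gave no sign of pairing: same-numbered arrays' deviations correlated at -0.0542, 0.141 and 0.00454. With the replicate block there were 246 calls over all probe sets, 1 of the 42 genes (Pde7b) and 0 of the pathway list (limma, 15 at an unadjusted p under 0.05). A block in this balanced design cannot change a difference, so those of Pde8b (1.76) and Ghsr (-1.17) were as without it. Both genes missed the threshold with the block (limma, adjusted p = 0.0528 for Pde8b and 0.0582 for Ghsr). The sign of 6 described genes turned under some setting. Pde6d was -0.0045 after quantile normalization, -0.092 with the covariate and -0.071 without controls 2 and 3, Prkaca was -0.022, -0.11 and -0.076, and Prkacb was -0.021, -0.063 and -0.11 under the same 3 settings. On probe set means Prkacb was -0.020 and Adcy7 -0.15. Pde8a was 0.023 after centring, and Adcy2 was -0.011 with the covariate. With 1 array left out Pde8a ran from -0.11 to 0.049, Prkaca from -0.057 to 0.10, Prkacb from -0.029 to 0.072 and Pde6d from -0.021 to 0.11. The causes were not tested. Pde7b and Pde8b kept their direction under all 14 alternatives. Genes at the dim end, such as Adcy8, cannot be resolved from background without detection calls.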
